A study of Mus musculus with 6 samples.

Results

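Tetraspanins are small proteins that cross the cell membrane several times and hold other surface proteins together in patches of the membrane. The transcripts of 10 tetraspanin genes, *Cd53*, *Cd9*, *Cd37*, *Cd63*, *Cd81*, *Cd82*, *Cd151*, *Tspan3*, *Tspan31* and *Tspan32*, were followed in RNA-seq data of thymocytes. These 10 were taken by gene symbol from the 41457 genes listed for each library, and 21 further genes of the family were listed beside them. *Cd53* was chosen for its low level in Nc1Bio libraries, so its values in this contrast are a description and no test is given for it. The mice were of 2 genotypes with 3 libraries each. Nc1Bio mice carried 1 additional copy of the whole *Nfatc1* locus on a bacterial artificial chromosome (BAC), fused to a biotin tag, together with the biotin ligase BirA, and their genotype is labelled as NFATc1 overexpression. BirA mice carried the ligase alone, had their endogenous *Nfatc1* only, and are labelled WT. The mice were young, matched for sex and age, and kept on a C57/B6 background. The cells were CD4-CD8- double-negative (DN) thymocytes left after CD4- and CD8-bearing cells had been removed with magnetic beads. The paper describes the sequenced DN cells as freshly isolated. The extra copy lay on a transgene driven by the sequences of the *Nfatc1* locus itself, in every cell that uses them, and the depletion removed no other cell type, so leukocytes that lack both co-receptors could remain. Separate animals behind the libraries are not named in the labels, and a p-value here therefore covers the spread among these 6 libraries, which may be technical.

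By way of background, tetraspanins have few known ligands and act through the proteins they hold. CD53 and CD37 are found on leukocytes, and CD53 on nearly all of them, where it binds the phosphatase CD45 (*Ptprc*). CD81 is found on many cell types and, on B cells, works with complement receptor CR2. CD9 and CD151 bind integrins, CD82 is found on T cells and costimulates them, and CD63 sits in late endosomes and exosomes. TSPAN5, 10, 14, 15, 17 and 33, called TspanC8 for their number of cysteines, take the protease ADAM10 to the surface. DN thymocytes are the early precursors of T cells, and NFATc1 is a transcription factor activated by calcium signals.

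Between 11845952 and 15393763 unique gene reads were available per library, and edgeR's quasi-likelihood test was run on the 12224 genes that passed a filter on low counts. *Nfatc1* itself, the gene of the BAC, had 573, 597 and 551 CPM (counts scaled to library size) in Nc1Bio libraries, against 152, 128 and 96.8 CPM in BirA libraries, so every library carried its label. It was higher in Nc1Bio with a log2 fold change of 2.19 (adjusted p = 0.0141, edgeR quasi-likelihood test with Benjamini-Hochberg adjustment over all tested genes). It was the only gene called by this test, which is 0.00818% of those tested. Before adjustment, 7.66% of the tested genes were lower and 4.31% higher in Nc1Bio with p under 0.05. DESeq2 called 2.23% lower and 0.45% higher at an adjusted p under 0.05. In 9.98% of tested genes all 3 Nc1Bio libraries lay below all 3 BirA libraries, and in 8.45% they lay above. *Cd4* averaged 3.49 ± 2.37 CPM in Nc1Bio, against 4.78 ± 2.14 CPM in BirA (SD, n = 3 each), and *Cd8a* averaged 7.51 ± 4.10 CPM in Nc1Bio, against 11.1 ± 5.06 CPM in BirA (SD, n = 3 each).

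NFAT proteins bind DNA at the core letters GGAAA. The promoter windows of *Cd53*, the gene whose level defined the set, and of *Tspan2*, a family gene that was higher in every Nc1Bio library, are shown because they had the lowest and the highest levels in Nc1Bio relative to BirA among family genes without overlap. They run from 250 bases before to 50 bases after the RefSeq start site (GRCm38.p6), 5′ to 3′ on the strand of the gene, and capitals mark GGAAA or its complement TTTCC. The *Cd53* window is chr3:106790100-106790399 on the minus strand and the *Tspan2* window is chr3:102734520-102734819 on the plus strand.
Cd53: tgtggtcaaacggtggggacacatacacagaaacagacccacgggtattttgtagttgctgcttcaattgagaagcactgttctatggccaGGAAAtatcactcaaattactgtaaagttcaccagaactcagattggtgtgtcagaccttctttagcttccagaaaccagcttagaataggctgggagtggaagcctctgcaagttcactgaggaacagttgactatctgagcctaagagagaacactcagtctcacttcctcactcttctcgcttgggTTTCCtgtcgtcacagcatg
Tspan2: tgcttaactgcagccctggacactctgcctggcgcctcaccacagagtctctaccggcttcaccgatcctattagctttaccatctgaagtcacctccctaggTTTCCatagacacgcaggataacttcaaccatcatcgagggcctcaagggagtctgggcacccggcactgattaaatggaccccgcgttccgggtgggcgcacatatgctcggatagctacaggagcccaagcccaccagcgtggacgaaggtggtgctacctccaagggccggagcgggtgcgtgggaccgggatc

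The *Cd53* window held 2 matches, GGAAA with its first base at -159 from the start site and TTTCC at 30. The *Tspan2* window held 1 match, TTTCC at -147. The *Cd37* window, chr7:45238790-45239089 on the minus strand, held 1 match, TTTCC at -5. The letters are common. A match on either strand was found in 61.3% of 32851 promoter windows of the same length, and 26.7% held 2 or more. Of the 10 tetraspanins, 5 had at least 1 match and 5 had none. Among those with a match, *Cd63* alone had a log2 fold change above 0. It was 0.080 (SE 0.53), and its window lies 8356 bp from the deposited start. Among those without, *Tspan3* alone was above 0, at 0.14. The presence of these letters says nothing about binding.

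*Cd53* (ENSMUSG00000040747) lies on the minus strand of chromosome 3 at 106759921 to 106790149 in GRCm38, with 8 annotated exons and no overlapping gene. It had 83.3, 91.2 and 118 CPM in Nc1Bio libraries, against 347, 236 and 206 CPM in BirA libraries. The highest Nc1Bio library stayed below the lowest BirA library, and the BirA libraries were spread more widely, with replicate 1 far above the others. The means were 97.6 ± 18.4 CPM in Nc1Bio, against 263 ± 74.1 CPM in BirA (SD, n = 3 each), a log2 fold change of -1.43 or a level 2.69-fold lower in Nc1Bio. When single libraries were left out, the log2 fold change lay between -1.59 (without Nc1Bio replicate 3) and -1.18 (without BirA replicate 1), and it was -1.34 without both. These values selected the gene and are not used as evidence here.

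The read classes of *Cd53* gave the same picture of a spliced messenger RNA in both genotypes. The gene had 1000, 1202 and 1534 unique reads in Nc1Bio libraries, against 4802, 3682 and 2965 in BirA libraries. Reads within introns were at most 0.9% of unique reads in any library, and at least 99.97% of all its reads were unique to it. Reads that span an exon junction averaged 26.3 ± 8.08 CPM in Nc1Bio, against 70.3 ± 15.2 CPM in BirA (SD, n = 3 each). Their ratio of means of 0.374 was close to the 0.371 of all unique reads. Such junction reads were between 24.7% and 30.1% of the exon reads of *Cd53* over the 6 libraries.

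**Figure D1:**
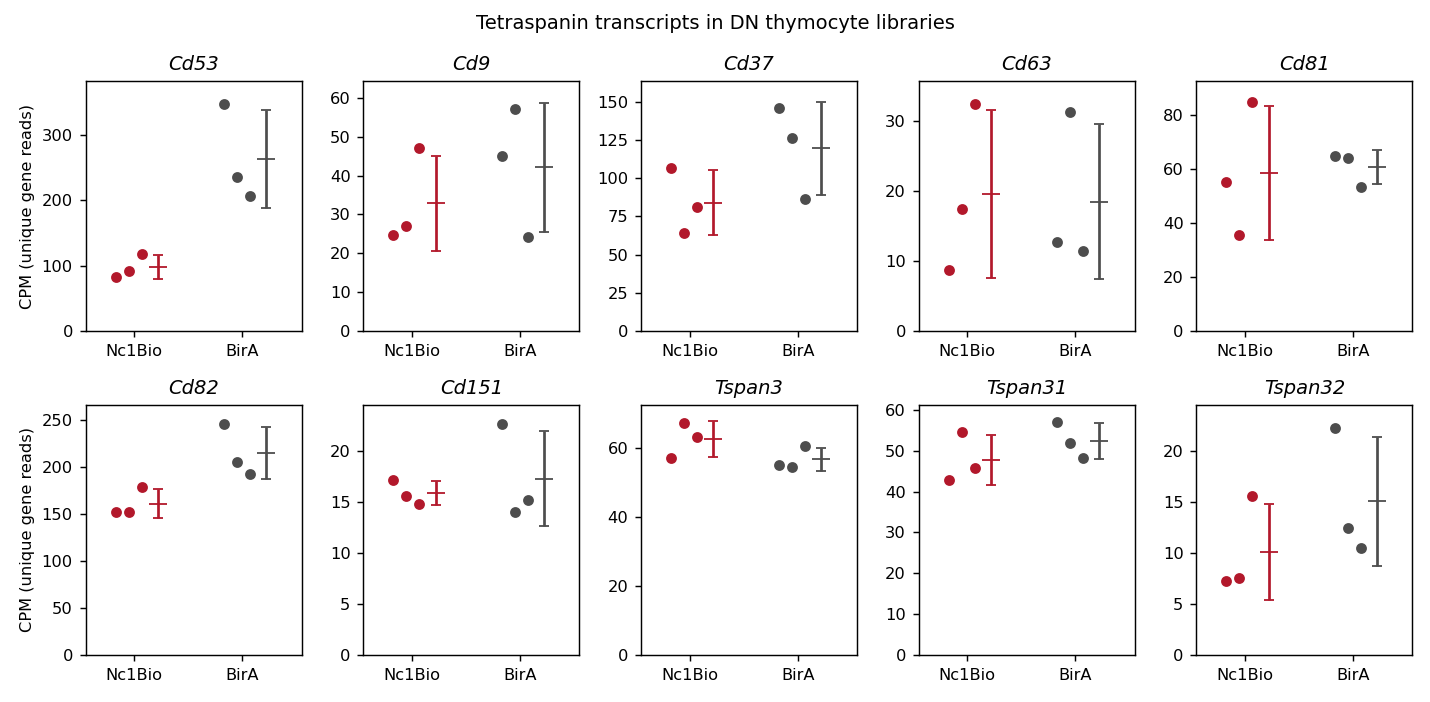
Levels of the 10 tetraspanin transcripts in CPM of unique gene reads, each panel on its own linear axis from 0, with 1 point per library (replicates 1 to 3 from left to right) and the mean with its SD as a bar. *Cd53* in Nc1Bio libraries lies between 83.3 and 118 CPM, below the 206 to 347 CPM of BirA libraries, while most other genes overlap between the genotypes.

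In bulk RNA, fewer cells of a type and less RNA per cell cannot be told apart, and CD53 is carried by most leukocytes. Among markers of other cells that a DN preparation can hold, nearly all log2 fold changes were below 0 in the 4 lymphoid lists. Most were also below 0 in the macrophage, granulocyte and dendritic cell lists. Those of the thymic epithelial and erythroid lists were above 0 with overlapping sums. The 10 markers of mature αβ T cells were all lower, with a summed level of 812 to 889 CPM in Nc1Bio and 1142 to 1411 CPM in BirA. Natural killer and innate lymphoid markers were lower in 9 of 9 tested genes, with sums of 363 to 503 CPM in Nc1Bio and 746 to 972 CPM in BirA. B cell markers were lower in 11 of 11 tested genes, with sums of 297 to 1583 CPM in Nc1Bio and 1675 to 2120 CPM in BirA, while *Igkc* of the same list was listed at 0 in every library. γδ T cell markers were lower in 9 of 10, with sums of 1216 to 1572 CPM in Nc1Bio and 1851 to 2162 CPM in BirA. The sums of these 4 lists did not overlap between the genotypes. Markers of DN thymocytes were higher in 13 of 15, with sums of 5289 to 6212 CPM in Nc1Bio and 4733 to 5450 CPM in BirA. Dendritic cell markers, 6 of 8 tested with a log2 fold change below 0, had sums of 336 to 733 CPM in Nc1Bio and 643 to 2395 CPM in BirA. Thymic epithelial markers, 3 of 3 tested above 0, had sums of 41.8 to 62.9 CPM in Nc1Bio and 37.5 to 53.9 CPM in BirA. Macrophage and monocyte markers, 10 of 10 tested below 0, and granulocyte markers, 8 of 10 below 0, had sums that overlapped between the genotypes. None of these marker genes was called by edgeR. In the first 5 lists DESeq2 called 6 αβ, 2 natural killer, 5 B cell and 3 γδ markers lower and 2 DN markers higher, and the counts with p under 0.05 before adjustment in edgeR were 7, 4, 9, 6 and 3 in the same order of lists. Over all tested genes DESeq2 called 2.23% lower and 0.45% higher, and 7.66% were lower and 4.31% higher with p under 0.05 before adjustment. The part of these markers' cells in the level of *Cd53* was not tested.

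Ratios within a library set *Cd53* against other surface genes. The CPM ratio of *Cd53* to *Ptprc*, the pan-leukocyte phosphatase CD45, was 0.142, 0.156 and 0.196 in Nc1Bio libraries, against 0.468, 0.323 and 0.289 in BirA libraries. The ratio to *Cd82* averaged 0.603 ± 0.0577 in Nc1Bio, against 1.21 ± 0.177 in BirA (SD, n = 3 each). The ratio to *Cd37* averaged 1.22 ± 0.379 in Nc1Bio, against 2.21 ± 0.294 in BirA (SD, n = 3 each). These ratios reuse the CPM values that selected *Cd53* and are a description only.

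Levels of different genes were compared per kilobase of exon (RPKM from unique exon reads). On this scale *Cd53* was the most abundant tetraspanin transcript in BirA DN thymocytes and came after *Tspan13* in Nc1Bio. It averaged 55.8 ± 10.8 RPKM in Nc1Bio, against 149.9 ± 41.9 RPKM in BirA (SD, n = 3 each). *Tspan13* averaged 102 ± 8.78 RPKM in Nc1Bio, against 88.2 ± 5.50 RPKM in BirA (SD, n = 3 each), and *Cd82*, in place 3 in both genotypes, averaged 53.4 ± 5.21 RPKM in Nc1Bio, against 71.3 ± 9.22 RPKM in BirA (SD, n = 3 each). *Cd53* made up 11.9%, 13.5% and 15.7% of the summed RPKM of the 31 family genes in Nc1Bio libraries, against 33.3%, 26.5% and 26.1% in BirA libraries. The family sum without *Cd53* was 351, 334 and 365 RPKM in Nc1Bio libraries, against 395, 374 and 335 RPKM in BirA libraries. These sums overlapped between the genotypes.

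Among the 10 genes, the order per length after *Cd53* and *Cd82* was *Cd37*, *Tspan31*, *Cd81*, *Cd9*, *Tspan3*, *Cd151*, *Cd63* and *Tspan32* in both genotypes. Most neighbours in that order could not be separated. In BirA libraries 3 of 9 neighbouring pairs did not overlap, *Cd53* over *Cd82*, *Cd82* over *Cd37* and *Tspan3* over *Cd151*. In Nc1Bio libraries 2 of 9 did not overlap, and the pair that was lost was *Cd53* over *Cd82*, whose ranges met there.

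**Figure D2:**
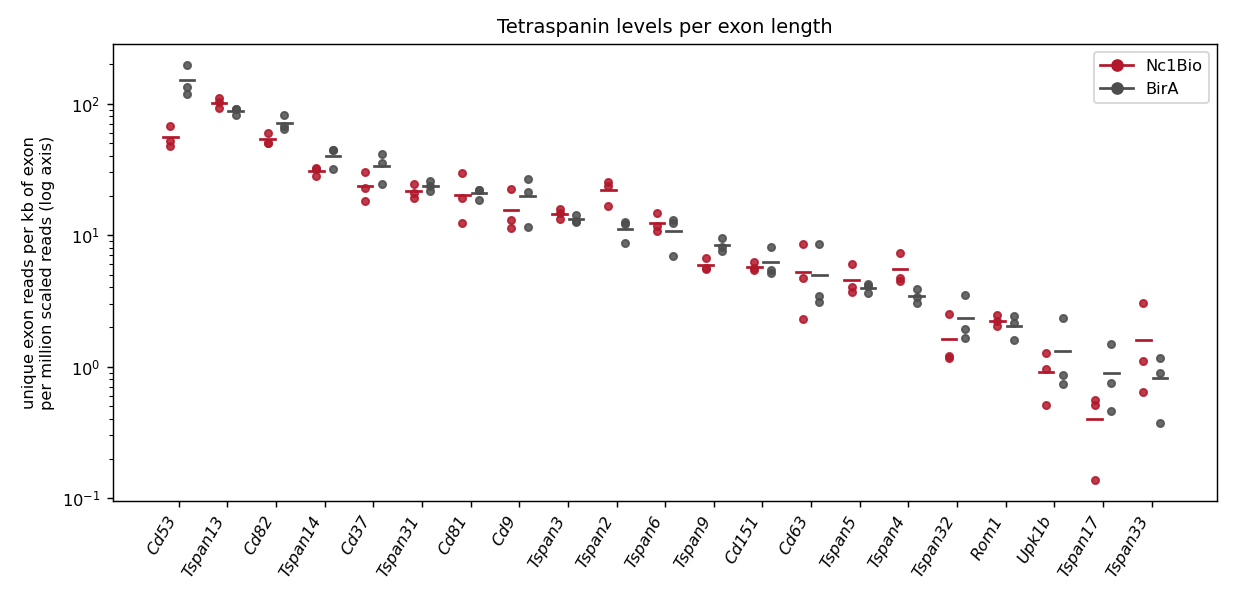
Levels per exon length in RPKM from unique exon reads (log axis) for the 21 family genes that passed the filter on low counts, with a point per library, a line at the mean, and Nc1Bio left of BirA. *Cd53* leads in BirA with a mean of 149.9 RPKM and *Tspan13* leads in Nc1Bio with a mean of 102 RPKM.

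The 9 tetraspanins other than *Cd53* all passed the filter on low counts. None was called by edgeR's quasi-likelihood test, and neither limma-voom nor DESeq2 called any. *Cd82* alone had an unadjusted p under 0.05, which is 1 of 9 beside the 7.66% of all tested genes that were lower at that level. The log2 fold changes were below 0 in 7 and above 0 in 2, with a median of -0.13, against a median of -0.0026 and 50.4% below 0 over all tested genes. Without Nc1Bio replicate 3 the median of the 9 was -0.48, and without both that library and BirA replicate 1 it was -0.38.

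*Cd82* is carried by T cells, and its protein costimulates them. It had 152, 152 and 179 CPM in Nc1Bio libraries, against 246, 205 and 193 CPM in BirA libraries. The 3 Nc1Bio libraries lay below the 3 BirA libraries, with a gap much smaller than that of *Cd53*. The log2 fold change was -0.42 with a standard error (SE) of 0.12 and a 95% interval of -0.70 to -0.13, and the adjusted p of 0.292 (edgeR, Benjamini-Hochberg) missed the threshold of 0.05. Over the 17 alternative fits the adjusted p of *Cd82* lay between 0.0662 (DESeq2) and 0.620, and leaving out single libraries gave log2 fold changes of -0.50 to -0.31. It was the only one of the 9 whose groups did not overlap, beside the 9.98% of all tested genes with that order.

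*Cd37*, which shares the leukocyte pattern of *Cd53* and is best known from B cells, had 106, 64.3 and 81.0 CPM in Nc1Bio libraries, against 146, 126 and 86.4 CPM in BirA libraries. Nc1Bio replicate 1 reached above BirA replicate 3, so the groups overlapped. The log2 fold change was -0.51 (SE 0.23, 95% interval -1.05 to 0.025, adjusted p = 0.442 by edgeR with Benjamini-Hochberg adjustment). The gene shares 13 bp with *Tead2* on the opposite strand, which had at most 26 unique reads. *Tspan32*, a tetraspanin of blood cells, had 7.25, 7.51 and 15.6 CPM in Nc1Bio libraries, against 22.3, 12.4 and 10.5 CPM in BirA libraries. Nc1Bio replicates 1 and 2 were the lowest of the 6 libraries and replicate 3 was among the BirA values. Its log2 fold change was -0.57 (SE 0.40, adjusted p = 0.596, edgeR with Benjamini-Hochberg adjustment) and ran from -1.03 to -0.18 when single libraries were left out. An antisense gene, *Tspan32os*, overlaps it by 2988 bp and had no unique read, and *Tspan32* lies 33094 bp from *Cd81* on chromosome 7.

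**Figure D3:**
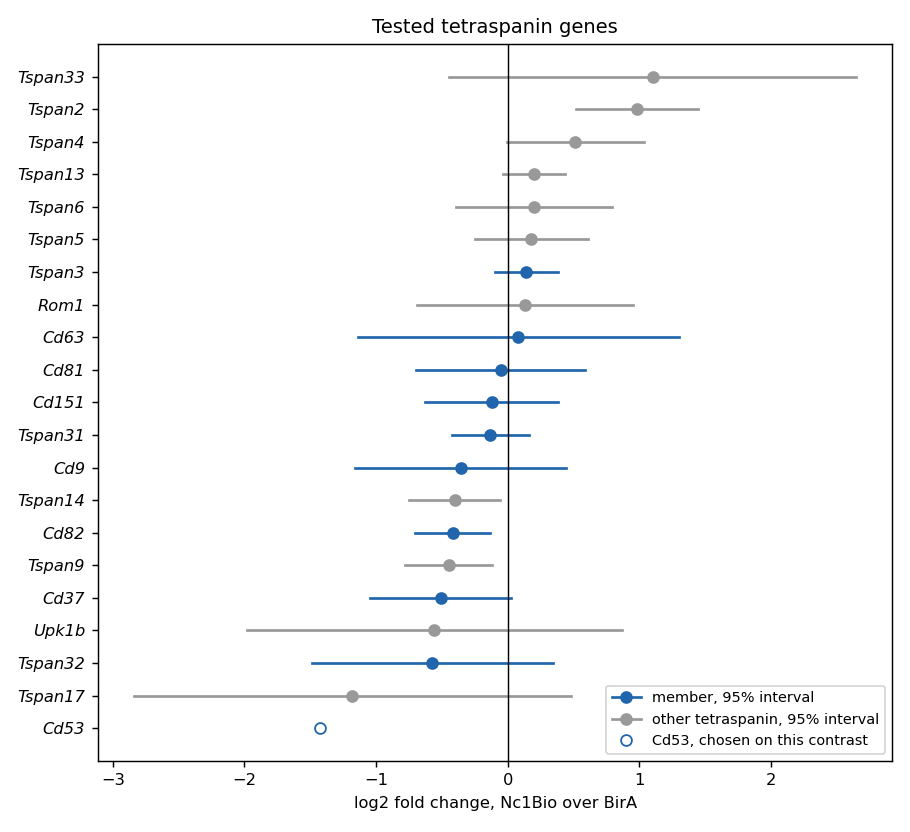
Log2 fold changes, Nc1Bio over BirA, of the 21 tested tetraspanin genes with 95% intervals from the edgeR fit, blue for the genes followed and grey for the rest of the family. *Cd53* is an open circle at -1.43 with no interval because it was chosen on this contrast, and *Tspan2* at 0.98 has the interval farthest above 0.

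*Cd9*, *Cd63* and *Cd81* varied more between libraries of a genotype than between the genotypes. *Cd9*, a partner of integrins, had 24.7, 27.01 and 47.0 CPM in Nc1Bio libraries, against 45.0, 57.0 and 24.2 CPM in BirA libraries. *Cd63*, the tetraspanin of late endosomes and granules, had 8.745, 17.4 and 32.5 CPM in Nc1Bio libraries, against 12.8, 31.2 and 11.5 CPM in BirA libraries. Both were high in Nc1Bio replicate 3 and in BirA replicate 2. For *Cd9* the log2 fold change was -0.36 (SE 0.35, adjusted p = 0.715) and for *Cd63* it was 0.080 (SE 0.53, adjusted p = 0.968), both by edgeR with Benjamini-Hochberg adjustment. Without single libraries that of *Cd63* ran from -0.50 (Nc1Bio replicate 3 left out) to 0.69 (BirA replicate 2 left out), and that of *Cd9* from -0.70 to -0.070 with the same libraries left out. The counts of *Cd63* are uncertain, since only 51.8% to 61.6% of its reads were unique to it.

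The granulocyte marker sum, over genes such as *S100a8* and *Ngp*, was 384, 2856 and 5548 CPM in Nc1Bio libraries, against 490, 9145 and 467 CPM in BirA libraries, and 8 of its 10 tested genes had a log2 fold change below 0. The macrophage and monocyte marker sum was 290, 309 and 670 CPM in Nc1Bio libraries, against 704, 1133 and 162 CPM in BirA libraries, with 10 of 10 tested genes below 0. The libraries stood in the order of *Cd9* and of *Cd63* in both sums and both genotypes. *Cd81* had 55.1, 35.4 and 84.7 CPM in Nc1Bio libraries, against 64.7, 63.9 and 53.5 CPM in BirA libraries. It followed the order of the erythroid marker sum, which was 40772, 17666 and 97664 CPM in Nc1Bio libraries, against 66151, 30799 and 20079 CPM in BirA libraries, with 7 of 7 tested genes above 0. Its log2 fold change was -0.055 (SE 0.28, 95% interval -0.70 to 0.59, adjusted p = 0.953 by edgeR with Benjamini-Hochberg adjustment). Over 21 tested family genes and 7 marker lists, 10 of 147 pairs shared the library order in both genotypes, also *Cd82*, *Tspan5* and *Tspan33* with the erythroid sum and *Tspan17* with the B cell and dendritic cell sums. *Tspan17* had few reads, with 0.228 to 0.916 CPM in Nc1Bio libraries and 0.768 to 2.53 CPM in BirA libraries. *Cd53* shared the library order with none of the 7, which left out the αβ, γδ and DN lists. The DN sum was 6212, 5885 and 5289 CPM in Nc1Bio libraries, against 4733, 5004 and 5450 CPM in BirA. In both genotypes this was the reverse of the *Cd53* order. The natural killer sum was 363, 422 and 503 CPM in Nc1Bio libraries, against 972, 746 and 756 CPM in BirA. It left the *Cd53* order only between BirA replicates 2 and 3. The αβ and γδ sums had neither order in Nc1Bio libraries. With 3 libraries per genotype an order can be shared without any link, and the share over all tested genes was not computed. The part of these cells in the tetraspanin levels was not tested.

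**Figure D4:**
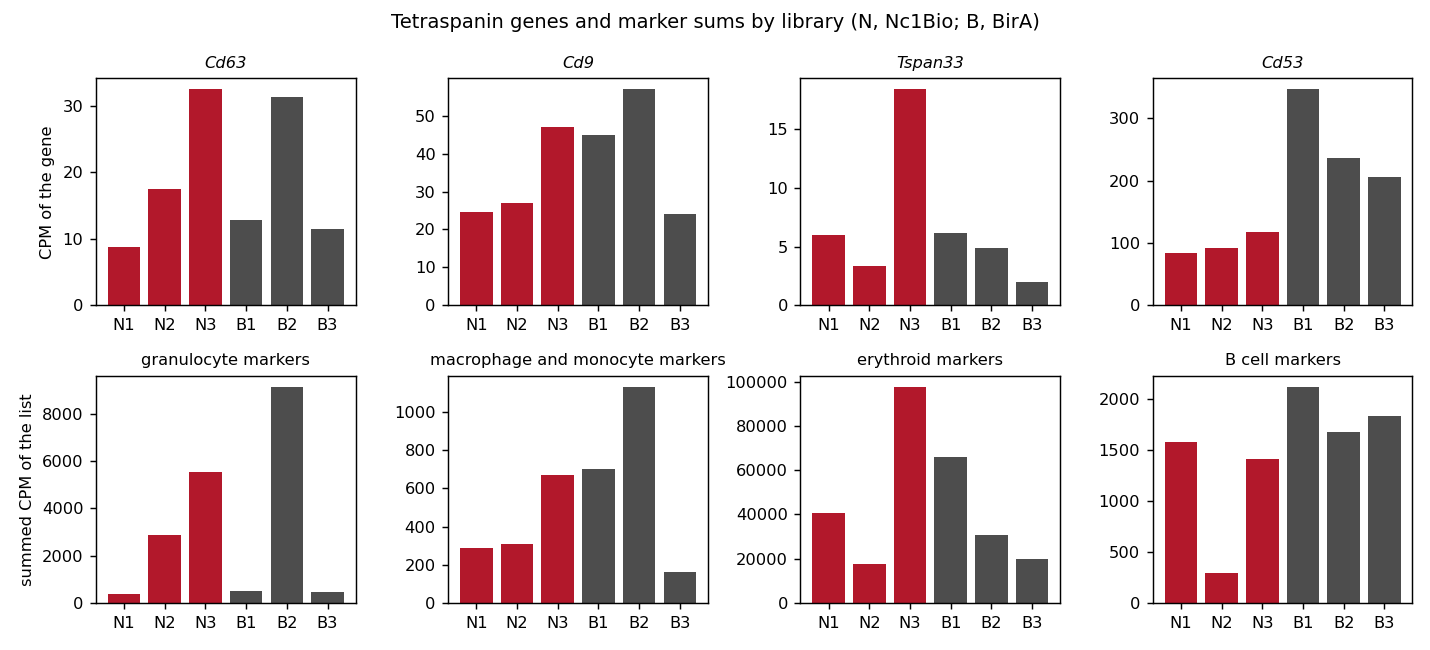
CPM of *Cd63*, *Cd9*, *Tspan33* and *Cd53* (upper row) above the summed CPM of a marker list (lower row), with a bar per library, Nc1Bio (N1 to N3) left of BirA (B1 to B3) and linear axes from 0. *Cd63* and the granulocyte sum are both highest in Nc1Bio replicate 3 and BirA replicate 2, and *Cd53* does not take the library order of the B cell sum. The DN marker sum, which is not drawn, takes the reverse of the *Cd53* order in both genotypes.

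*Cd151*, *Tspan3* and *Tspan31* were close between the genotypes. *Cd151*, which binds laminin-binding integrins, had 17.2, 15.6 and 14.8 CPM in Nc1Bio libraries, against 22.6, 14.0 and 15.1 CPM in BirA libraries, so that BirA replicate 1 alone stood apart. *Tspan3* had 57.05, 67.4 and 63.2 CPM in Nc1Bio libraries, against 55.2, 54.5 and 60.7 CPM in BirA libraries. Its groups overlapped at a small spread, and its log2 fold change of 0.14 had a 95% interval of -0.10 to 0.38 (adjusted p = 0.622, edgeR with Benjamini-Hochberg adjustment). *Tspan31* had 42.8, 54.6 and 45.9 CPM in Nc1Bio libraries, against 57.0, 51.9 and 48.3 CPM in BirA libraries. Its groups overlapped and its log2 fold change of -0.13 had a 95% interval of -0.42 to 0.16 (adjusted p = 0.707, edgeR with Benjamini-Hochberg adjustment). *Tspan31* shares 641 bp with *Cdk4*, a cell cycle kinase gene on the opposite strand with 6338 to 9155 unique reads per library, and use of strand in the counting is not stated, so reads of the shared stretch could belong to either. The log2 fold change of *Cd151* was -0.12 with a 95% interval of -0.63 to 0.38 (adjusted p = 0.852, edgeR with Benjamini-Hochberg adjustment). The genes that overlap *Cd9*, *Cd81*, *Cd82* and *Cd151*, among them *R74862*, had at most 25 unique reads in any library.

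Of the 21 further family genes, 11 were tested, and 10 had at most 13 unique reads in any library. Among these 10, *Upk1a* of the urothelium had at most 3 reads in a library, and *Prph2* of photoreceptors had none in any. In the 11 tested, 7 log2 fold changes were above 0 and 4 below, with a median of 0.18. edgeR called none, while 1 higher and 2 lower had p under 0.05 before adjustment, limma-voom called none and DESeq2 called 1, *Tspan2*, beside 0.45% of all tested genes called higher by DESeq2.

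*Tspan2*, known from myelinating cells, stood opposite to *Cd53*. It had 123, 114 and 78.7 CPM in Nc1Bio libraries, against 41.7, 58.5 and 59.4 CPM in BirA libraries. Every Nc1Bio library lay above every BirA library. The log2 fold change was 0.98 (SE 0.20, 95% interval 0.52 to 1.44), with an adjusted p of 0.168 by edgeR and Benjamini-Hochberg adjustment. The adjusted p of *Tspan2* was 0.000161 with DESeq2 and 0.0118 in edgeR without the filter on low counts, and over the 17 alternatives it reached 0.529. Per exon length it took place 6 of the family in Nc1Bio with 21.9 ± 4.69 RPKM and place 10 in BirA with 11.1 ± 2.06 RPKM (SD, n = 3 each).

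*Tspan9*, a tetraspanin of platelets, had 29.8, 36.6 and 29.5 CPM in Nc1Bio libraries, against 42.6, 39.1 and 49.4 CPM in BirA libraries. All Nc1Bio libraries lay below, with a log2 fold change of -0.45 (SE 0.14, adjusted p = 0.321, edgeR with Benjamini-Hochberg adjustment). *Tspan4* and *Tspan13* lay above in all Nc1Bio libraries. *Tspan4* had 12.6, 11.8 and 17.8 CPM in Nc1Bio libraries, against 10.9, 9.03 and 9.66 CPM in BirA libraries, with a log2 fold change of 0.51 (adjusted p = 0.430, edgeR with Benjamini-Hochberg adjustment). *Tspan13* had 275, 254 and 229 CPM in Nc1Bio libraries, against 229, 204 and 227 CPM in BirA libraries, with a log2 fold change of 0.20 (adjusted p = 0.478, edgeR with Benjamini-Hochberg adjustment). In all, 3 of the 11 lay above without overlap and 1 lay below, beside 8.45% and 9.98% of all tested genes.

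The TspanC8 group, which guides the protease ADAM10, did not move as one. Of its 6 genes 4 were tested, with 2 log2 fold changes above 0 and 2 below, and none was called by edgeR or DESeq2, while 1 had an unadjusted p under 0.05. That gene, *Tspan14*, had 85.7, 76.2 and 84.1 CPM in Nc1Bio libraries, against 119, 122 and 84.3 CPM in BirA libraries. BirA replicate 3 stood at the Nc1Bio level, and the log2 fold change was -0.40 (SE 0.15, adjusted p = 0.369, edgeR with Benjamini-Hochberg adjustment). *Tspan33* had 5.996, 3.34 and 18.4 CPM in Nc1Bio libraries, against 6.14, 4.87 and 1.95 CPM in BirA libraries. Its high value was that of Nc1Bio replicate 3, the library with the highest erythroid sum, and its log2 fold change of 1.10 was 0.11 without that library. *Adam10* itself had 173, 205 and 191 CPM in Nc1Bio libraries, against 203, 219 and 201 CPM in BirA libraries, a log2 fold change of -0.13 (adjusted p = 0.615, edgeR with Benjamini-Hochberg adjustment).

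Genes of the surface proteins that tetraspanins hold were mostly lower in Nc1Bio libraries. Of 25 such partners 24 were tested, with 20 log2 fold changes below 0 and 4 above and a median of -0.33. Over all tested genes 50.4% were below 0 and the median was -0.0026. edgeR and limma-voom called none. Before adjustment 4 lower and 0 higher had p under 0.05 in edgeR, beside 7.66% and 4.31% of all tested genes. DESeq2 called the same 4 genes lower, among them *Ptprc* and *Cr2*, beside 2.23% of all tested genes. *Ptprc*, which CD53 binds, had 587, 585 and 603.5 CPM in Nc1Bio libraries, against 741, 729 and 714 CPM in BirA libraries. The groups were well apart, and the replicates of each genotype hardly differed.

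For *Ptprc* the log2 fold change was -0.30 (SE 0.080, adjusted p = 0.263 by edgeR with Benjamini-Hochberg adjustment, 0.0108 by DESeq2). *Cr2*, the complement receptor gene of B cells, had 4.83, 1.59 and 0.925 CPM in Nc1Bio libraries, against 28.6, 5.51 and 3.89 CPM in BirA libraries. BirA replicate 1 stood far above the other libraries, and Nc1Bio replicate 1 lay above BirA replicate 3. For *Cr2* the log2 fold change was -2.37 (SE 0.89, adjusted p = 0.380 by edgeR with Benjamini-Hochberg adjustment, 0.0411 by DESeq2). It was -0.94 without BirA replicate 1 and -0.56 without BirA replicate 1 and Nc1Bio replicate 3. All tested genes of the B cell list were likewise below 0 in Nc1Bio, and the part of those cells was not tested. *Cd81* itself had overlapping groups.

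Genes of the late endosome and lysosome, the compartment of the CD63 protein, gave 16 log2 fold changes below 0 and 2 above in 18 tested of 20, with a median of -0.13. edgeR and limma-voom called none, 2 lower and 0 higher had p under 0.05 before adjustment, beside 7.66% of all tested genes lower at that level, and DESeq2 called 1 lower, beside 2.23%. With 18 genes the counts with p under 0.05 and of DESeq2 calls are near the shares over all genes. The 16 below 0 stand beside 50.4% below 0 over all tested genes. In 4 of the 18 all Nc1Bio libraries lay below all BirA libraries, beside 9.98% of all tested genes, and in 0 above, beside 8.45%. The gene called by DESeq2 was *Laptm5*, a lysosomal membrane protein of blood cells, with 759, 622 and 709 CPM in Nc1Bio libraries, against 1242, 1026 and 787 CPM in BirA libraries. The groups did not overlap, with a log2 fold change of -0.55 (SE 0.17, adjusted p = 0.303 by edgeR with Benjamini-Hochberg adjustment, 0.0237 by DESeq2). The log2 fold change was -0.29 for *Ctsd*, which encodes the protease cathepsin D, -0.24 for *Rab27a*, a regulator of granule and exosome release, and -0.95 for *Cd68*, a macrophage gene with overlapping groups. For *Ctsd* and *Rab27a* the groups did not overlap, and the adjusted p-values were 0.377 for *Ctsd*, 0.434 for *Rab27a* and 0.537 for *Cd68* (edgeR, Benjamini-Hochberg). *Cd63* had no such difference.

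The genes whose pattern over the 6 libraries was closest to that of *Cd53* were *Inpp4b*, *Cnr2*, *Crem*, *Arap2* and *Crebrf*. Likeness was measured as the root mean square difference between the log2 CPM of a gene and of *Cd53*, each centred on its own mean. It was 0.16 for *Inpp4b*, 0.18 for *Cnr2* and for *Crem*, and 0.20 for *Arap2* and for *Crebrf*, against a median of 0.79 over the other 12223 tested genes. Values far below that median follow from picking the closest genes. *Inpp4b*, a phosphoinositide phosphatase gene, had 12.7, 12.8 and 16.4 CPM in Nc1Bio libraries, against 48.2, 25.4 and 28.7 CPM in BirA libraries. *Cnr2*, the cannabinoid receptor gene of immune cells, had 8.41, 7.59 and 14.1 CPM in Nc1Bio libraries, against 41.8, 23.4 and 19.0 CPM in BirA libraries. Both repeated the high value of *Cd53* in BirA replicate 1.

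*Crem*, a transcription factor gene of cAMP signalling, had 5.33, 6.90 and 7.25 CPM in Nc1Bio libraries, against 18.6, 13.8 and 11.8 CPM in BirA libraries. *Arap2*, a GTPase-activating protein gene, had 14.99, 10.9 and 21.4 CPM in Nc1Bio libraries, against 52.3, 35.5 and 34.1 CPM in BirA libraries. *Crebrf*, a regulator of CREB3 proteins, had 15.1, 15.2 and 16.7 CPM in Nc1Bio libraries, against 49.5, 28.4 and 27.2 CPM in BirA libraries. In the 5 genes all Nc1Bio libraries lay below all BirA libraries, which follows from how they were chosen. Within the family the closest was *Tspan32* at 0.47, yet 350 of the tested genes were closer, and *Cd82* at 0.52 and *Cd37* at 0.55 came after it and *Tspan17*. The place of *Tspan17* rests on few reads, with at most 2.53 CPM in any library. The farthest was *Tspan2* at 1.30.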

How the data were processed

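RNA of DN thymocytes was selected for poly(A) and sequenced. Per the study's methods, reads were trimmed with cutadapt, aligned with STAR to GRCm38 and counted with featureCounts. For each gene, the authors deposited raw counts by class of read (unique or total, over gene, exon, junction or intron). The deposited columns differ from the output of featureCounts, so which program wrote these columns, and with which strand setting, could not be established. RPKM and TPM columns were not used.

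Unique gene reads, 64.1% to 76.0% of total gene reads, were tested. Genes passing filterByExpr (12224 of 41457, read minimum 10) were scaled by TMM and fitted in edgeR 4.0.16 (R 4.3.3) by the quasi-likelihood test, with genotype as the single term and Benjamini-Hochberg adjustment, calls at 0.05. SE were taken as log2 fold change over root F, and CPM use TMM-scaled library sizes, and RPKM here are unique exon reads over exon length on the same sizes. Only the edgeR steps were run on simulated counts, whose noise was independent between genes. The outcome is not given here, and no conclusion rests on it. No 2 libraries were duplicates, the lowest chi-square over its degrees of freedom being 24.3.

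The members and gene lists were chosen with earlier results of these data known. The named genes are the 10 members, *Nfatc1*, the 4 genes of lowest p in each other list, the 5 genes most like *Cd53* (pseudocount of 0.5 CPM, predicted genes left out) and genes overlapping a member. *Tspan33*, *Tspan13*, *Adam10*, *Cd4* and *Cd8a* were named after their values were seen. A few results are not reported here.

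Alternatives were RLE scaling, no filter, limma-voom (limma 3.58.1), DESeq2 1.42.0 at 0.05 and at the study's cutoffs (0.01 and an absolute log2 fold change over 0.5), a minimum of 1 CPM in 3 libraries, a replicate block, the 3 other count columns, and leaving out each library. Hemoglobin genes left out, and BirA replicate 1 with Nc1Bio replicate 3 left out, were chosen after seeing the data. Promoter windows are RefSeq's on GRCm38.p6. All 10 members matched, and the RefSeq start lies 8356 bp from the deposited start in *Cd63* and 4407 bp in *Tspan3*.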

Additional observations from a re-analysis of the deposited data

How the results depend on the processing

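With edgeR 1 gene was called higher and 0 lower among all tested, with 936 lower at an unadjusted p under 0.05. Without the low-count filter the numbers were 11 higher and 145 lower, with DESeq2 55 and 273, with the study's threshold 13 and 155, without BirA replicate 1 and Nc1Bio replicate 3 1 and 2, and without single libraries 0 to 1 in each direction. *Nfatc1* missed the threshold without Nc1Bio replicate 1, 2 or 3 or BirA replicate 2 (adjusted p 0.0618 to 0.141, edgeR). Of the other tetraspanins, 1 was called without the filter, with DESeq2 and with the study's threshold, of the partners 4 with DESeq2 and 1 with the study's threshold, and of the late endosome genes 1 with DESeq2. The cause of these differences was not tested. The log2 fold change changed sign for *Cd63* with total exon reads (-0.016), without BirA replicate 1 and Nc1Bio replicate 3 (-0.71) and without single libraries (-0.50 to 0.69). Leaving out single libraries also turned *Cd81* (-0.42 to 0.21), *Cd151* (-0.25 to 0.12), *Tspan5* (-0.027 to 0.30), *Tspan6* (-0.036 to 0.36), *Upk1b* (-0.87 to 0.20) and *Rom1* (-0.018 to 0.27). Without BirA replicate 1 and Nc1Bio replicate 3 it was 0.16 for *Cd151* and 0.16 for *Upk1b*. *Cd53*, *Cd9*, *Cd37*, *Cd82*, *Tspan3*, *Tspan31* and *Tspan32* kept their direction in all 17 alternatives. Same-numbered libraries correlated at 0.33, 0.12 and -0.099 in their deviations, and the other pairs at -0.39 to 0.25. With 3 libraries per genotype these values cannot show whether the numbers pair the samples. The replicate block gave 1 higher and 1 lower call. Of the family, 10 genes did not pass the filter on low counts, and low expression and limited depth were not separated for them.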
